A study of Mus musculus with 4 samples.

Results

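Core genes of autophagy and mitophagy were compared between Beta-TC-6 cells depleted of NF90 and control cells. Beta-TC-6 is an established mouse pancreatic beta cell line, and NF90 is a protein that binds double-stranded RNA. The gene set was a fixed list of 42 genes, chosen by name from the known machinery, of which 40 could be measured among 22180 genes in all. The other 2 were not analysed here. Each gene was read by the Affymetrix Mouse Gene 2.1 ST probe set that carries its symbol alone, or by the one with the highest mean where there were several (Gabarap and Tbc1d15). The siNTC group held 2 arrays of cells transfected with a negative control siRNA, and the siNF90 group held 2 arrays of cells transfected with a mixture of siRNA duplexes against NF90. Both groups carried the lipid transfection reagent and were grown in 25 mM glucose with 15% serum, and both came from 1 cell line. The labels do not say that replicate arrays stem from different cultures, so the p-values speak to the spread among these 4 arrays, possibly a technical one. The transcript of NF90 itself was not analysed here, and each group is called by its label. The RNA is of whole cultures, in which fewer cells with a transcript and less of it per cell cannot be told apart.

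Autophagy encloses cytoplasm in a double membrane, the autophagosome, which then fuses with the lysosome. A kinase complex starts the process, a lipid kinase complex marks the site, and conjugation enzymes attach small ubiquitin-like proteins of the Atg8 family to the growing membrane. Receptors tie cargo, some of it ubiquitin-tagged, to these proteins, and mitophagy is the branch that removes mitochondria. Beta cells are known to rely on autophagy to keep insulin granules, the endoplasmic reticulum and mitochondria in order.

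Promoters are shown for the members in which the E-box CACGTG lies upstream of the transcription start, because this word is the core of the site read by Tfeb and Tfe3, the transcription factors of autophagy and lysosome genes, which are described further on. RefSeq (GRCm38.p6) held a promoter for 34 of the 40 measured members, and the 250 bases before the start were searched on both strands. CACGTG was found in 4 of the 34 members (11.8%) and in 6.86% of all 27025 genes with a promoter. The antioxidant response word TGACNNNGC was found in 4 members (11.8%, against 11.5% of all genes) and the ATF4 word TGATGNAA in 1 member, Tbc1d15 (2.94%, against 3.91%). These matches are letters in a window and are not shown to be bound. The 4 sequences run 5′ to 3′ on the strand of the gene and end at the base before the start, with matched words in capitals. Atg3 lies at chr16:45158579-45158828 (plus strand) and holds CACGTG at -94 and -71, counted to the start. Atg5 (chr10:44268089-44268338, plus strand) holds it at -14. Atg7 (chr6:114670846-114671095, plus strand) holds it at -132. Nrbf2 (chr10:67285282-67285531, minus strand) holds it at -208, and the other capitals in Nrbf2, from -62, are a match to the antioxidant word on the opposite strand that does not overlap it.
Atg3: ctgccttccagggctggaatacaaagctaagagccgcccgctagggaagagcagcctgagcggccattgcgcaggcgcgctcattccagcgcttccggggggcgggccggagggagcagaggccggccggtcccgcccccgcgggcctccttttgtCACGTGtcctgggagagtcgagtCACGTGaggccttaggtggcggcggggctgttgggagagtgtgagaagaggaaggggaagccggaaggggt
Atg5: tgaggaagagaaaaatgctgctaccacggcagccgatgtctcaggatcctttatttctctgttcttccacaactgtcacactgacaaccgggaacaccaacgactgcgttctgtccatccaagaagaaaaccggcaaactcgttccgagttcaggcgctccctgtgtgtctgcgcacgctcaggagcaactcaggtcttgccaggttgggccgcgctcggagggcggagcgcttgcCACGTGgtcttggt
Atg7: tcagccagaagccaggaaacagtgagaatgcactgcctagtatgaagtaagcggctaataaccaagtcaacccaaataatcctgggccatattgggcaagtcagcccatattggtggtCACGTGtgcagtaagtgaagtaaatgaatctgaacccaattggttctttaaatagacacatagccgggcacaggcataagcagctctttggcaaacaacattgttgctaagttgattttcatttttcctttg
Nrbf2: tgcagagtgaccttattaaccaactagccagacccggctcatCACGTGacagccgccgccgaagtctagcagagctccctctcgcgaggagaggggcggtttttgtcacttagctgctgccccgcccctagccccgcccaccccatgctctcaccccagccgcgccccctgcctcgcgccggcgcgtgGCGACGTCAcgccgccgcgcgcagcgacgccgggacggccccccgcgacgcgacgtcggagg
None of these 4 genes passed the test over all genes, and in Atg5 and Atg7 the groups overlapped. The log2 difference, siNF90 minus siNTC with its SE, was 0.22 ± 0.14 for Atg3, 0.06 ± 0.12 for Atg5, 0.07 ± 0.18 for Atg7 and 0.17 ± 0.13 for Nrbf2.

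No core autophagy gene differed between the groups in the test over all genes. The differences ran from -0.52 (Fundc1) to 0.35 (Pik3r4) on the log2 scale, so that no measured member reached a fold of 1.5, and the largest fold was 1.43. Of the 40 genes, 28 lay above 0 and 12 below it, with a median of 0.07, beside a median of 0.02 over all genes, of which 53.1% lay above 0. With array medians aligned, 27 lay above 0, as Wipi2 changed sign, and 48.9% of all genes did. The members above 0 numbered 25 without siNTC array 1 and 28 without siNTC array 2 (all genes: 54.72% and 51.56%). They numbered 23 without siNF90 array 1 and 27 without siNF90 array 2 (all genes: 51.95% and 52.15%). In limma's test with Benjamini-Hochberg adjustment over 22180 genes, adjusted p ran from 0.428 to 0.979 for the members, and 0% of all genes passed at 0.05. With a level-dependent trend in the variance prior, 101 genes passed (0.455%), with 0 members among them. At an unadjusted p under 0.05, 1 member was higher (Atg16l1) and 3 were lower (Atg4a, Atg4c and Fundc1), where 1303 of all genes were higher (5.87%) and 978 lower (4.41%). Of the 40 members, 38 lay at or above the median level of all genes in at least one group, and among the 11457 genes at that level 8.27% were higher and 6.4% lower. The members' counts, 2.5% and 7.5%, lie near those shares. The members' counts changed whichever array was left out, and no share over all genes is given for those fits.

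The precision bounds how large a missed change could be only as far as the spread among these arrays goes. Where that spread is technical, the intervals do not bound a change between independent cultures. Each interval is for its gene alone, with no adjustment across the members. The 95% interval of the difference, taken from the fit for each gene, lay within 2-fold in either direction for 40 of 40 members and within 1.5-fold for 30 of 40. For all genes of at least the median level these shares were 95% and 63.2%. In 12 members the siNF90 arrays were higher than either siNTC array, in 7 they were lower than either, and in 21 the groups overlapped. Across all genes 21.9% were higher and 17.9% lower in this sense, and 26.3% and 21.8% among genes of at least the median level, so the members' 30% and 17.5% are near the background here too. The number of arrays limits the precision, and a gene that misses the threshold is not shown to be equal in the groups.

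**Figure D1:**
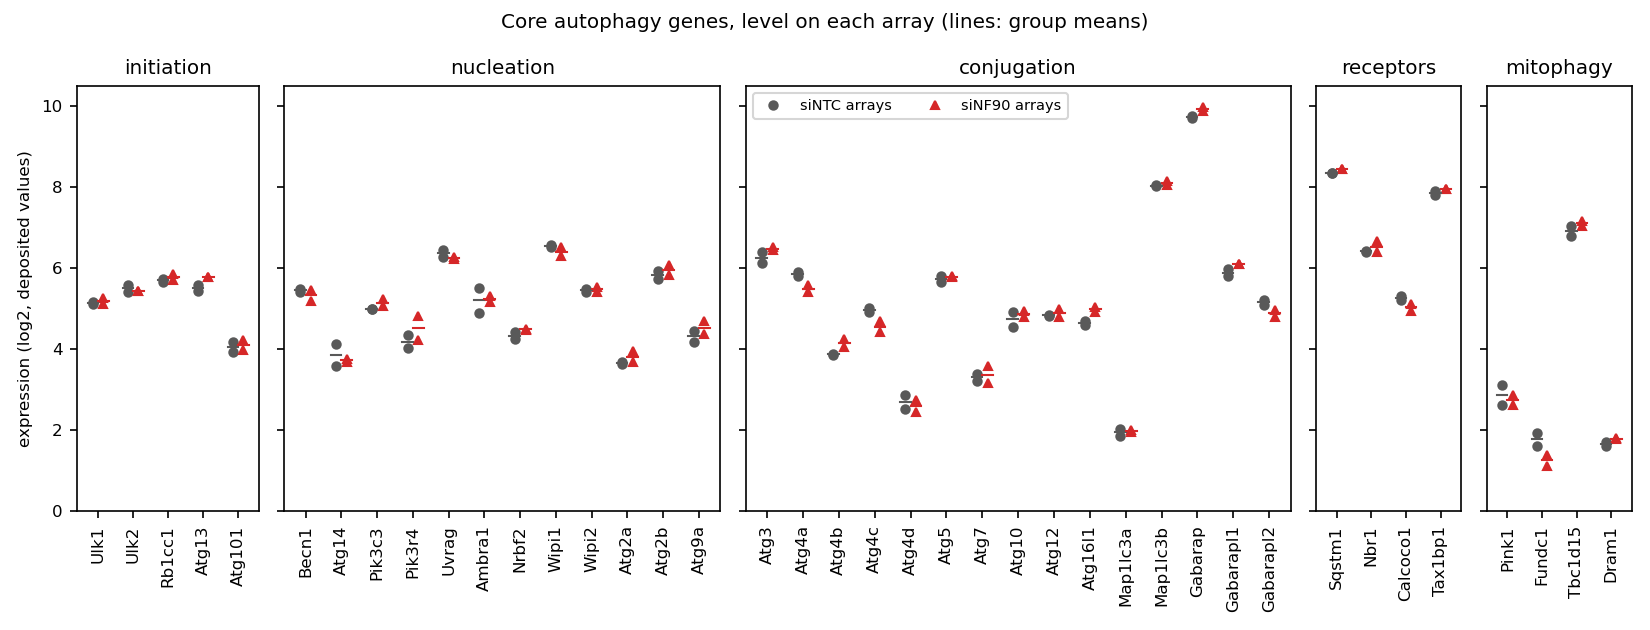
Log2 expression (vertical axis) of the 40 measured core autophagy genes on each array, by step; grey circles are the 2 siNTC arrays, red triangles the 2 siNF90 arrays, and short lines the group means. The groups of nearly every gene lie close together, with Fundc1 showing the largest gap (1.77 against 1.25); heights are not comparable between genes, since each is a different probe set.

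**Figure D2:**
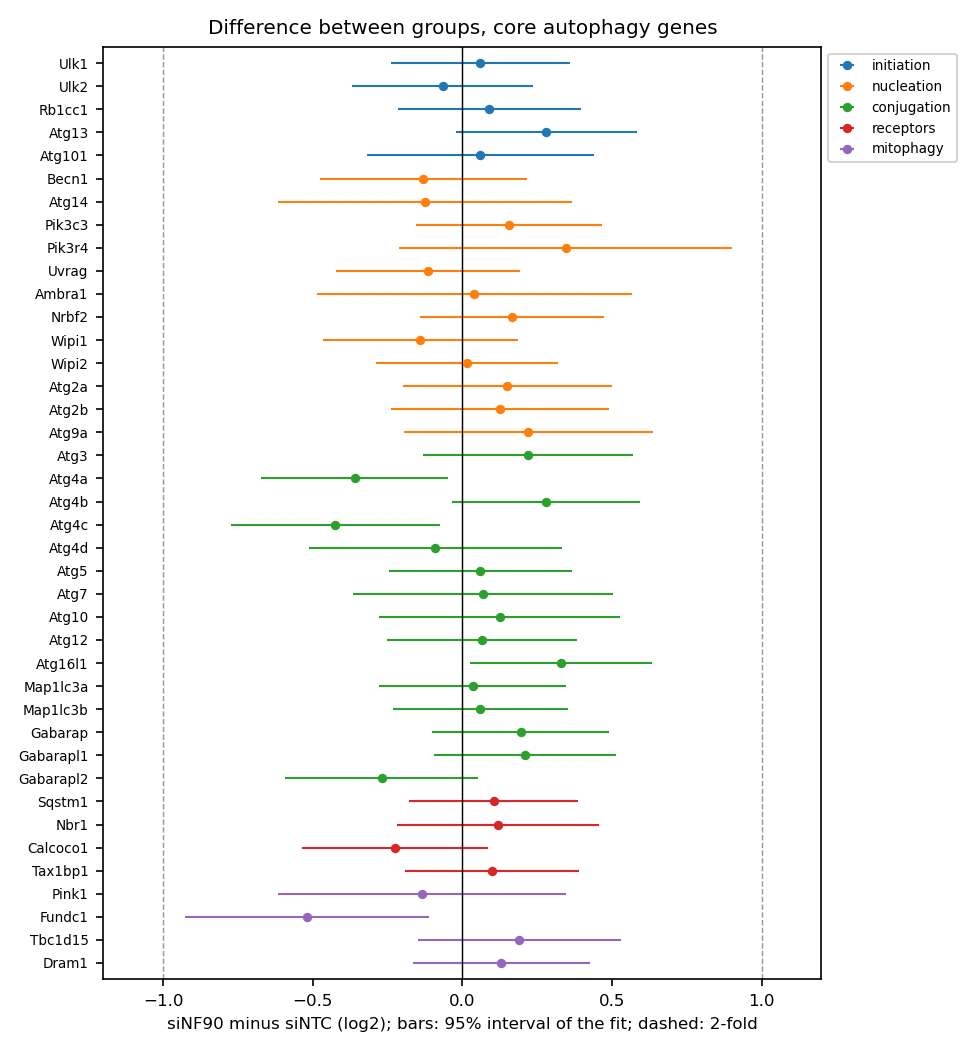
Difference siNF90 minus siNTC (log2, horizontal axis) of each core gene with the 95% interval of the fit; colours mark the step and dashed lines mark 2-fold. The intervals of Atg4a, Atg4c and Fundc1 lie below 0 and that of Atg16l1 above 0, and no interval reaches 2-fold.

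Genes of the initiation complex had 4 of 5 members above 0, a median of 0.06 and no member at an unadjusted p under 0.05. Ulk1, the kinase that starts autophagy, read 5.1 and 5.15 on the siNTC arrays and 5.25 and 5.12 on the siNF90 arrays (log2), a difference of 0.06 ± 0.12 (SE), and the groups overlapped. Its relative Ulk2 read 5.42 and 5.57 in siNTC and 5.43 on both siNF90 arrays, also overlapping (-0.07 ± 0.12). Rb1cc1 (FIP200), the scaffold of the complex, read 5.66 and 5.73 in siNTC against 5.86 and 5.71 in siNF90, with a difference of 0.09 ± 0.12. These 3 genes showed differences smaller than their SE. Atg13, the regulatory subunit that binds the kinase to its scaffold, read 5.43 and 5.58 in siNTC against 5.78 and 5.79 in siNF90. The groups were clear of each other, and the difference of 0.28 ± 0.12 (1.21-fold) did not pass limma's test (adjusted p = 0.511). Atg101, which stabilises Atg13, stood at 4.16 and 3.92 in siNTC against 4.23 and 3.97 in siNF90, a difference of 0.06 ± 0.15.

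Nucleation genes, which comprise the phosphatidylinositol 3-kinase complex and the proteins that enlarge the membrane, had 8 of 12 members above 0 and a median of 0.08. None of the 12 had an unadjusted p under 0.05. Becn1 (Beclin 1), the scaffold of the lipid kinase complex, read 5.42 and 5.49 in siNTC against 5.19 and 5.46 in siNF90, so that only the first siNF90 array lay clearly lower (-0.13 ± 0.14). The catalytic subunit Pik3c3 (Vps34) read 4.98 and 4.99 in siNTC against 5.23 and 5.05 in siNF90, both siNF90 arrays above, with a difference of 0.16 ± 0.13. Pik3r4 (Vps15), its regulatory subunit, had the largest positive difference of all members, 0.35 ± 0.23, and also a wide spread. It read 4.34 and 4.02 in siNTC against 4.82 and 4.23 in siNF90, so the groups overlapped and the difference came mostly from the first siNF90 array (0.05 without it). Nrbf2, a partner of Atg14 in the complex, read 4.41 and 4.24 in siNTC against 4.48 and 4.5 in siNF90 (0.17 ± 0.13). Atg14, which directs the complex to autophagy, differed by -0.13 ± 0.20, Uvrag, its counterpart in endosomal complexes, by -0.12 ± 0.13, and Ambra1, a regulator of Beclin 1, by 0.04 ± 0.21. The complex as a whole thus had 4 of 7 genes above 0.

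Among the genes of membrane growth, 4 of 5 lay above 0 and none was past an unadjusted p of 0.05. Atg9a, a membrane-spanning lipid scramblase, read 4.44 and 4.18 in siNTC against 4.7 and 4.36 in siNF90, overlapping, with a difference of 0.22 ± 0.17 that was 0.05 without siNF90 array 1, 0.09 without siNTC array 2, 0.35 without siNTC array 1 and 0.39 without siNF90 array 2. The lipid transfer proteins Atg2a and Atg2b differed by 0.15 ± 0.14 and 0.13 ± 0.15. Wipi1 and Wipi2, which bind the lipid made by Pik3c3, differed by -0.14 ± 0.13 and 0.02 ± 0.12. Wipi1 was the one of these 5 genes whose groups did not overlap, with siNF90 lower. It read 6.52 and 6.56 in siNTC against 6.51 and 6.29 in siNF90, so the groups nearly met. Its difference ranged from -0.25 to -0.03 with each array left out.

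Conjugation genes, the largest step with 15 of the 40 measured members, held 3 of the 4 members with an unadjusted p under 0.05 in limma. These were 1 higher (6.67%) and 2 lower (13.3%). Among genes at or above the median level 8.27% were higher and 6.4% lower, and whether the step differs from these shares was not tested. Of 15 genes, 11 lay above 0, with a median of 0.07. The Atg4 proteases, which trim Atg8 proteins before conjugation and release them from membranes afterwards, went in both directions. Atg4c read 5.02 and 4.92 on the siNTC arrays and 4.41 and 4.68 on the siNF90 arrays, with every siNF90 value below every siNTC value. Its difference was -0.43 ± 0.14 (1.34-fold lower; adjusted p = 0.439 in limma). Atg4a read 5.8 and 5.9 in siNTC against 5.41 and 5.57 in siNF90, again without overlap, a difference of -0.36 ± 0.13 (1.28-fold lower; adjusted p = 0.446). Atg4b, often described as the main protease of the family, went the other way, at 3.86 and 3.87 in siNTC against 4.24 and 4.05 in siNF90. The groups did not overlap, and the difference was 0.28 ± 0.13 (1.21-fold; adjusted p = 0.528). Atg4d differed by -0.09 ± 0.17. Whether the 4 proteases differ from one another in their response was not tested.

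The enzymes that build the conjugates lay above 0 in 6 of 6 genes, where 53.1% of all genes did. With an array left out, it was 4 of 6 without siNTC array 1 and 5 of 6 without siNTC array 2. It was 4 of 6 without siNF90 array 1 and 6 of 6 without siNF90 array 2. Atg16l1, which places the conjugation machinery on the membrane, read 4.6 and 4.7 in siNTC against 5.04 and 4.92 in siNF90. The siNF90 values were the higher on both arrays, by 0.33 ± 0.12 (1.26-fold; adjusted p = 0.462 in limma), and the unadjusted p was 0.0376. Atg3, the E2-like enzyme for Atg8 proteins, differed by 0.22 ± 0.14 with both siNF90 arrays higher. Atg10, the E2-like enzyme for Atg12, differed by 0.13 ± 0.16, and Atg7, the E1-like enzyme that serves both, by 0.07 ± 0.18. Atg12 and Atg5, which are joined to each other, differed by 0.07 ± 0.13 and 0.06 ± 0.12. These last 4 genes had overlapping groups.

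The Atg8 family, whose lipid-bound forms coat the autophagosome, showed small differences. Map1lc3b (LC3B), the usual marker of autophagosomes, read 8.06 and 8.02 in siNTC against 8.05 and 8.15 in siNF90, a difference of 0.06 ± 0.12 with overlapping groups. Map1lc3a differed by 0.04 ± 0.13, with group means of 1.94 in siNTC and 1.975 in siNF90. These lie just above the median level of all genes, 1.85, and without a measure of background the signal cannot be called detected. Gabarap lay higher on both siNF90 arrays, with 9.76 and 9.7 in siNTC against 9.98 and 9.87 in siNF90 (0.20 ± 0.12). Its second probe set, at 6.3 and 6.22 in siNTC against 6.6 and 6.56 in siNF90, went the same way. Gabarapl1 differed by 0.21 ± 0.12 and also lay higher on both siNF90 arrays. Gabarapl2, in contrast, lay lower on both, with 5.21 and 5.09 in siNTC against 4.97 and 4.79 in siNF90 (-0.27 ± 0.13, adjusted p = 0.549 in limma). These records are of transcripts, and the lipid-bound protein was not measured.

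Cargo receptors were measured by 4 of 5 listed genes, of which 3 lay above 0, with a median of 0.10. Sqstm1 (p62), a receptor that is itself degraded by autophagy, had the tightest replicates of the 4, at 8.35 and 8.34 in siNTC against 8.44 and 8.46 in siNF90. The siNF90 values were the higher ones, yet the difference was 0.11 ± 0.12, or 1.07-fold (adjusted p = 0.805 in limma). The SE exceeds the gaps between these replicates because limma draws each gene's spread towards that of all genes. Nbr1, which acts with Sqstm1, read 6.4 and 6.42 in siNTC against 6.4 and 6.66 in siNF90, and its difference of 0.12 ± 0.14 came from the second siNF90 array alone. Tax1bp1 read 7.81 and 7.91 in siNTC and 7.96 on both siNF90 arrays (0.10 ± 0.12). Calcoco1, a receptor for the endoplasmic reticulum and Golgi, was the lower one, at 5.3 and 5.21 in siNTC against 5.11 and 4.95 in siNF90. Its groups did not overlap, and it differed by -0.23 ± 0.13 (1.17-fold lower; adjusted p = 0.602).

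Mitophagy genes had no common direction, with 2 of 4 measured members above 0 and a median of 0. Pink1, the kinase that marks damaged mitochondria, read 3.11 and 2.62 in siNTC against 2.85 and 2.61 in siNF90. The groups overlapped, and its difference of -0.14 ± 0.20 changed sign without the first siNTC array (0.11). Fundc1, a receptor in the outer mitochondrial membrane that acts in low oxygen, had the largest difference of all members. It read 1.61 and 1.92 in siNTC against 1.11 and 1.38 in siNF90, with every siNF90 value below every siNTC value, a difference of -0.52 ± 0.17 (1.43-fold lower; adjusted p = 0.428 in limma). Both group means of Fundc1 lay under the median level of all genes, 1.85, and there is no measure of background here, so its fold rests on a signal that cannot be called detected. Tbc1d15, a regulator of the Rab7 GTPase at mitochondria, read 6.8 and 7.03 in siNTC against 7.04 and 7.17 in siNF90 (0.19 ± 0.14). Dram1, a lysosomal membrane protein that p53 induces, read 1.59 and 1.71 in siNTC against 1.77 and 1.79 in siNF90. Its siNF90 values were the higher ones, by 0.13 ± 0.12 (adjusted p = 0.769), at a signal that was also under the median level.

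**Figure D3:**
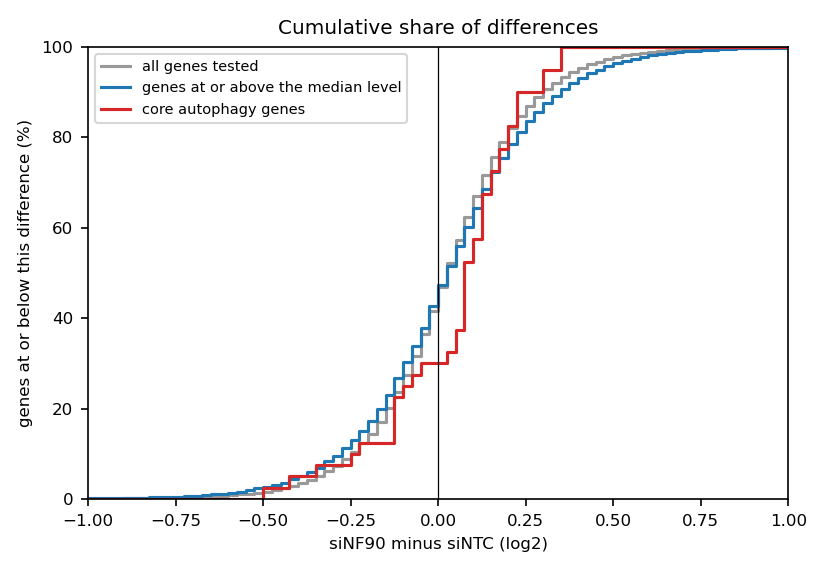
Cumulative share of genes (vertical axis, percent) at or below each difference siNF90 minus siNTC (horizontal axis, log2) for the 40 core autophagy genes (red), all 22180 genes (grey) and the 11457 genes at or above the median level (blue). At 0 the curve of the core genes stands at 30% against 46.9% of all genes, and at 0.25 it stands at 90% against 87%, so the core genes lie mostly between 0 and 0.25.

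Other genes of the pathway were read from a list of 72, of which 71 were measured. At an unadjusted p under 0.05, 9 were higher and 2 lower, and limma's adjusted p over all genes was 0.357 at the smallest. The median difference was 0.05, with 43 genes above 0, 27 below and 1 (Rab7, a GTPase of late endosomes) at 0. Higher genes made up 12.7% of this list, beside 5.87% of all genes and 8.27% of those at or above the median level. Both counts at this threshold were smaller whichever array was left out, and no share over all genes is given for those fits. They therefore cannot tell a trait of this list from a general change in calls. The genes above 0 numbered 44 without siNTC array 1, 39 without siNTC array 2, 36 without siNF90 array 1 and 43 without siNF90 array 2. Over all genes 54.72%, 51.56%, 51.95% and 52.15% lay above 0 in the same order.

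Among 19 genes of upstream control, 15 lay above 0. Tfe3, an activator of autophagy and lysosome genes, read 4.6 and 4.51 in siNTC against 4.95 and 4.94 in siNF90. These groups did not overlap, and the difference was 0.39 ± 0.12 (1.31-fold; adjusted p = 0.415 in limma). Zkscan3, described as a repressor of the same genes, read 4.59 and 4.63 in siNTC against 4.1 and 4.27 in siNF90. It was thus lower on both siNF90 arrays, by -0.43 ± 0.13 on the log2 scale (1.34-fold; adjusted p = 0.409). Tfeb, the best known activator, read 1.34 and 1.35 in siNTC against 1.33 and 1.4 in siNF90, under the median level and with a difference of 0.02 ± 0.12. Mtor, the kinase that holds autophagy back when nutrients are plentiful, differed by 0.16 ± 0.12, and its partner Rptor by 0.24 ± 0.13.

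Of 11 other genes of the early membrane, 6 lay above 0. Rubcn (Rubicon), an inhibitor of the lipid kinase complex, read 3.8 and 3.98 in siNTC against 3.59 and 3.02 in siNF90. Both siNF90 arrays were lower, the second by far the more, and the difference of -0.59 ± 0.21 (1.5-fold lower; adjusted p = 0.448 in limma) was -0.3 without that array. Snx18, a membrane-bending protein, read 6.22 and 6.18 in siNTC against 6.47 and 6.85 in siNF90 (0.46 ± 0.16, adjusted p = 0.441), and 0.27 remained without the second siNF90 array. Wdr45b, a relative of the Wipi proteins, differed by 0.32 ± 0.13. Genes of fusion with the lysosome, 14 in all, had a median of -0.02 and no member at an unadjusted p under 0.05. The largest differences there were those of the SNARE Vamp8, at 2.73 and 2.76 in siNTC against 2.9 and 3.29 in siNF90 (0.35 ± 0.16), and of the adaptor Plekhm1, at 3.72 and 3.81 in siNTC against 4.17 and 3.93 in siNF90 (0.29 ± 0.14). Both moved with single arrays: Vamp8 differed by 0.155 without siNF90 array 2 and by 0.545 without siNF90 array 1, and Plekhm1 by 0.165 without siNF90 array 1.

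The remaining selective receptors and mitophagy genes held most of the higher genes, 6 of 27 measured at an unadjusted p under 0.05 (22.2%) and 0 lower. Beside this, 5.87% of all genes were higher and 4.41% lower, and 8.27% and 6.4% of those at or above the median level. Bnip3, a mitophagy receptor that low oxygen induces, read 5.13 and 4.98 in siNTC against 5.64 and 5.61 in siNF90. Its groups lay well apart, by 0.57 ± 0.12 (1.49-fold; adjusted p = 0.357 in limma), a larger difference than in any core gene. Tex264, a receptor that sends endoplasmic reticulum to autophagy, read 3.25 and 2.89 in siNTC against 3.41 and 3.74 in siNF90, a difference of 0.51 ± 0.18 (1.42-fold; adjusted p = 0.455). Retreg1 (Fam134b), a receptor of the same kind, differed by 0.33 ± 0.13, while Ccpg1 and Sec62, which also serve the endoplasmic reticulum, differed by 0.26 ± 0.14 and 0.19 ± 0.13, and Rtn3 by -0.15 ± 0.12. The other genes past the unadjusted p were Tbc1d17, a relative of Tbc1d15 (0.47 ± 0.12), Usp15, a deubiquitinase that opposes mitophagy (0.41 ± 0.12), and the ubiquitin-binding adaptor Tollip (0.29 ± 0.12), named after their values were seen. Fundc2, the relative of Fundc1, differed by -0.29 ± 0.12 and lay lower on both siNF90 arrays.

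**Figure D4:**
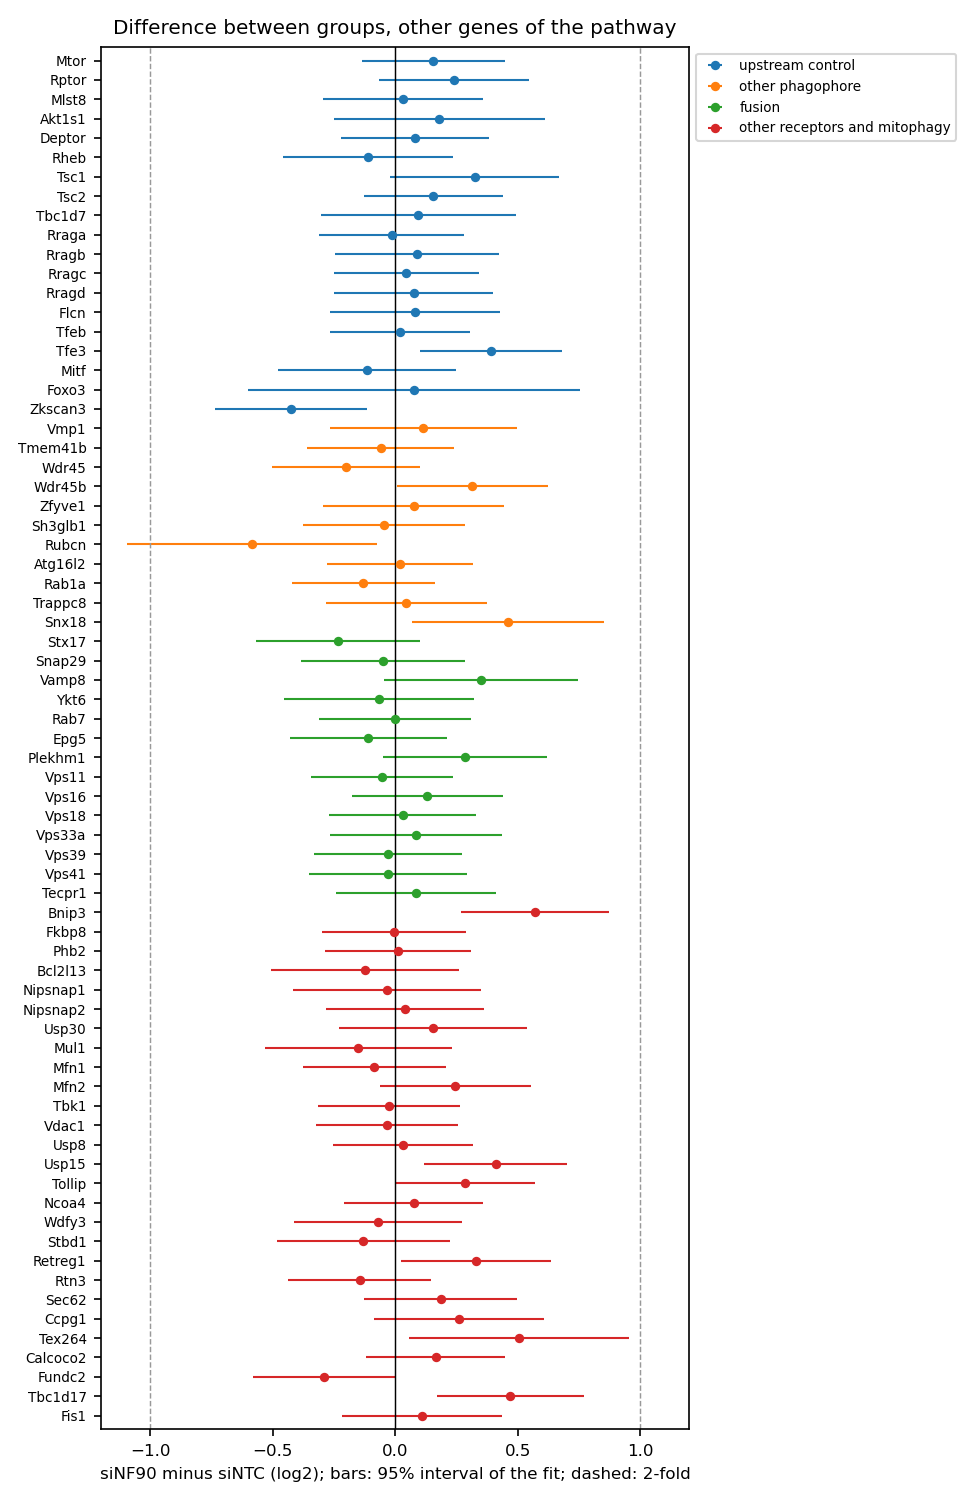
Difference siNF90 minus siNTC (log2, horizontal axis) with the 95% interval of the fit for the 71 other genes of the pathway, coloured by group, with dashed lines at 2-fold. Intervals lie above 0 for 9 genes: Bnip3, Tbc1d17, Usp15, Tfe3, Snx18, Tex264, Retreg1, Wdr45b and Tollip, the last 2 only just. Those of Zkscan3 and Rubcn lie below 0, and the others span 0.

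The arrays shared their scale, with medians from 1.65 to 1.68 over all probe sets, and arrays of a group correlated at 0.9927 (siNTC) and 0.9919 (siNF90) across genes, which are not independent replicates. Of the beta cell markers 9 of 9 measured lay at or above the median level, and so did 5 of 5 markers of other islet cells, Gcg (glucagon) and Sst (somatostatin) among them, whereas 1 of 7 exocrine and duct markers and 1 of 8 stromal, endothelial and blood markers did. At an unadjusted p under 0.05, 2 of the 9 beta cell markers were higher (22.2%) and 0 lower. Beside this, 5.87% of all genes and 8.27% of those at or above the median level were higher. Nkx6-1 differed by 0.45 ± 0.12 and Mafa by 0.38 ± 0.15 (adjusted p = 0.397 and 0.481 in limma), both named after their values were seen. The marker lists had median differences of -0.03 (beta cell), 0.03 (other islet cells), 0.02 (exocrine and duct) and 0 (stromal, endothelial and blood). Cd68, a lysosomal protein abundant in macrophages and named after its values were seen, stood apart in the last list. It read 3.32 and 3.35 in siNTC against 4.44 and 4.48 in siNF90, a difference of 1.125 ± 0.116 (2.18-fold). It did not pass in limma's main fit (adjusted p = 0.342). With the trend in the variance prior it passed (adjusted p = 0.0217), as did 0.455% of all genes. The blood cell markers Ptprc and Adgre1 differed by -0.02 and -0.03 and lay under the median level.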

How the data were processed

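Per the labels, RNA from 4 Beta-TC-6 samples (2 siNTC, 2 siNF90) was labelled from 250 ng and hybridised to Affymetrix Mouse Gene 2.1 ST arrays. The authors deposited log2 values of 41345 probe sets; the submitters' processing notes name Transcriptome Analysis Console. The version, background correction, normalization and summarization were not given in the sources used here. The log base is unstated and was taken as 2, because 5 to 10 values per array lie above 11.09, the highest natural logarithm a scanner of this kind could give. There is no measure of background.

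Of the probe sets, 23521 had 1 gene symbol in the platform annotation, 1814 several and 16010 none here; 23328 matched RefSeq gene identifiers (GRCm38.p6). The probe set with the highest mean was kept for 1082 genes with several. Limma 3.58.1 (lmFit, eBayes without a trend, R 4.3.3) was fitted on 22180 unfiltered genes, with 2 residual and 3.92 prior degrees of freedom, as siNF90 minus siNTC, two-sided, with Benjamini-Hochberg adjustment at 0.05. An exact permutation test of 2 against 2 cannot go below p = 0.333 and was not used. Of the 42 members, 40 were measured; the 2 not matched, Bnip3l among the other genes and 2 of the markers are not analysed here. Named in full are Ulk1, Becn1, Map1lc3b, Sqstm1, Pink1 and Dram1, up to 4 members per step with the largest absolute difference, Bnip3, Tfeb and the 2 largest of each other group. Members and lists were chosen with earlier results of these data known, so no list was tested.

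Simulated data had 200 of 22180 genes changed, over 10 draws. The fit without a trend recovered 48.2% of changes of log2 1 and 96.8% of log2 2, with 1.55% false calls. With a trend in the variance prior, 76.3% and 99.7% were recovered, with 4.99% false calls. Recovery of lower genes, of low signals such as Fundc1 and Dram1, and of differences smaller than log2 1 was not tested. The members' differences, from -0.52 to 0.345, were all smaller than that, so none of these rates applies to them. Alternatives were a prior with a trend or made robust, a block for the replicate number, quantile normalization, aligned medians, a level filter, other uses of probe sets and leaving out each array.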

Additional observations from a re-analysis of the deposited data

How the results depend on the processing

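No member passed the adjusted threshold of 0.05 in limma under any of the 12 alternatives run, which were planned with earlier results known. The closest was the trend in the variance prior, with 101 genes past it over all genes (0.455%), a smallest adjusted p of 0.158 among the members and of 0.0817 among the other pathway genes. Of the 31 genes named in full, all 245 differences under the 8 alternatives that kept every array (the level filter drops Fundc1, Dram1 and Tfeb) stayed on the same side of the threshold and none changed sign, though that of Tfeb was 0 with array medians aligned. Those 8 had 4 settings that changed the count of higher members at an unadjusted p under 0.05 from 1: it was 0 with the replicate block, 3 with the trend, 2 with quantile normalization and 0 with every probe set tested. The higher other genes numbered 5 in place of 9 with the replicate block and 4 with every probe set tested, and the lower ones went from 2 to 1 under both and to 5 with the trend. Quantile normalization moved the mitophagy median from 0 to 0.0394.

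The replicate number was not stated to mark a shared culture. The deviations of same-numbered arrays correlated at -0.02 across genes, which cannot tell whether these arrays share a culture or a batch. The block leaves 1 residual degree of freedom.

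Leaving out each array in turn leaves a group with a lone array, assumed to vary like the other group, and 1 residual degree of freedom. The counts of members and of other genes at an unadjusted p under 0.05 in limma then changed whichever array was left out. No share over all genes is given for those fits. Step medians ranged from -0.005 to 0.165 (initiation), 0.005 to 0.105 (nucleation), 0.045 to 0.165 (conjugation), 0.0425 to 0.115 (receptors) and -0.0875 to 0.0725 (mitophagy), and that of all members from 0.03 to 0.11. The difference changed sign for 6 of the 31 genes, with ranges of -0.005 to 0.125 for Ulk1, -0.14 to 0.01 for Ulk2, -0.265 to 0.005 for Becn1, -0.38 to 0.11 for Pink1, -0.01 to 0.25 for Nbr1 and -0.015 to 0.055 for Tfeb. The cause of these changes was not tested.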

Other observations

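The gap between the 2 arrays of a group differed widely among the core genes and bears on how small a difference could be seen. The median gap was 0.14 on the log2 scale in siNTC and 0.16 in siNF90, beside 0.14 in both groups for the 11457 genes at or above the median level. Gaps above 0.4 occurred in 3 of 40 members in siNTC and in 2 of 40 in siNF90. Among the 11457 genes at or above the median level they occurred in 1202 and 1281, so such gaps are not particular to the members. The regulator Ambra1 had the largest, with 4.9 and 5.5 on the siNTC arrays against 5.32 and 5.16 on the siNF90 arrays. Atg14 read 3.57 and 4.13 in siNTC against 3.76 and 3.69 in siNF90, and Atg7 read 3.38 and 3.21 in siNTC against 3.58 and 3.15 in siNF90. Ambra1, Pik3r4 and Atg14, the 3 genes with the widest gaps, are all in the nucleation list. These genes were named after their values were seen.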
